A study of Homo sapiens with 6 samples.

Results

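The genes described here are 37 subunits of voltage-gated sodium channels, voltage-gated calcium channels and related cation channels. They were taken as a list of gene symbols, chosen with earlier results of these data known. They comprise 22 pore-forming subunits and 15 auxiliary subunits. Of the 37, 30 had a row among the 20668 genes of the deposited count table, and 28 of these were tested with 16403 genes in all. The levels come from SH-SY5Y cells, a human neuroblastoma line with properties of sympathetic neuronal precursors. RNA-seq was done on 3 libraries of cells carrying a CRISPR/Cas9 knockout of DNAJC12 and 3 libraries of wild-type (WT) cells, neither of which received a treatment. DNAJC12 is a J-domain co-chaperone of HSP70, and the series addresses its role in invasion by these cells. Whether the knockout line is 1 clone or a pool, and whether replicates were separate cultures, is not stated in the labels. What the p-values measure is therefore the scatter of these 6 libraries, and part or all of it may be technical.

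Sodium and calcium channels are built around a large pore-forming α subunit that senses the membrane potential and opens to let its ion into the cell. Auxiliary subunits bind the pore and set how much of it reaches the surface and how it gates. In sympathetic neurons and neuroblastoma cells, sodium channels carry the upstroke of the action potential, and calcium channels couple it to transmitter release, gene expression and growth.

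Depth was similar across the libraries, with 19321842 to 21869659 counts each, and 1 count equalled 0.0457 to 0.0518 CPM (counts scaled to a fixed library total). Levels are given as CPM after TMM scaling for comparisons of 1 gene between genotypes. Levels of different genes are compared only per length, as CPM per kb of the longest coding transcript or as TPM, the length-scaled share of all transcripts. Changes are log2 fold changes of the knockout over WT ± SE (n = 3 libraries per genotype) from edgeR's quasi-likelihood test. Its p-values were adjusted by Benjamini-Hochberg over all 16403 genes, with a threshold of 0.05. DNAJC12 itself was at 5.91, 5.88 and 4.85 CPM in the knockout libraries 1, 2 and 3, against 23.0, 21.4 and 20.0 CPM in the WT libraries, so that 25.8% of its RNA remained. Genotype set the libraries apart on the leading principal component, with 68.7% of the variance. Of the sympathetic neuroblast markers, 11 of 12 had a row in the table, and their summed level was 4300 to 4390 CPM in the knockout against 4300 to 4430 CPM in WT. Single markers moved in both directions under this sum. Of the 11 tested, 4 were higher and 5 were lower in the knockout. This is 81.8% past the threshold, against 26.0% of all genes tested. TH, the enzyme that makes the precursor of noradrenaline, was the marker without a row.

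Markers of other cell types were present at lower levels and in part moved with genotype. All 8 fibroblast markers had a row, with a summed level of 376 to 406 CPM in the knockout against 324 to 347 CPM in WT. PDGFRA, FAP and COL1A1 were higher, and LUM and DPT were lower. Epithelial markers summed to 5.1 to 5.6 CPM in the knockout and 12.8 to 14.0 CPM in WT, with 4 of 8 in the table. Most of this sum was CLDN4, at a mean of 3.32 CPM in the knockout and 10.9 CPM in WT. It was the only epithelial marker called, of 3 tested. Schwann cell and glial markers summed to 7.37 to 8.35 CPM in the knockout and 7.71 to 9.68 CPM in WT, with 4 of 8 in the table and without a row for SOX10 and GFAP. Muscle markers summed to 2.15 to 2.85 CPM in the knockout and 2.28 to 3.68 CPM in WT, with 3 of 8 in the table and without a row for MYOD1 and MYOG. The part of these genes' cell types in the channel results was not tested.

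Of the 28 tested subunits, 12 were higher and 5 were lower in the knockout, and 11 did not pass the test. This is 60.7% called. Over all genes tested, 26.0% were called, 14.5% as higher and 11.5% as lower. The median log2 fold change of the subunits was 0.29, against 0.00 over all genes tested. In 22 of the 28 subunits the 3 knockout values lay apart from the 3 WT values (15 above, 7 below), a pattern that 41.7% of all genes tested showed. Pore-forming subunits had 6 higher and 2 lower of 14 tested, with a median of 0.21, and auxiliary subunits had 6 higher and 3 lower of 14 tested, with a median of 0.33. For SCN2B, CACNG5 and NALCN all 3 knockout libraries but fewer than 3 WT libraries reached the minimum of 0.501 CPM, so they entered the test through the knockout, and the counts and medians over tested subunits are descriptions. Scaling by library size alone shifted the median log2 fold change of all genes by -0.0557. It changed the split of all called genes to 2055 higher and 2438 lower (45.7% higher), from 2383 higher and 1887 lower (55.8% higher) with TMM. Among the subunits it gave 12 higher and 6 lower.

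**Figure D1:**
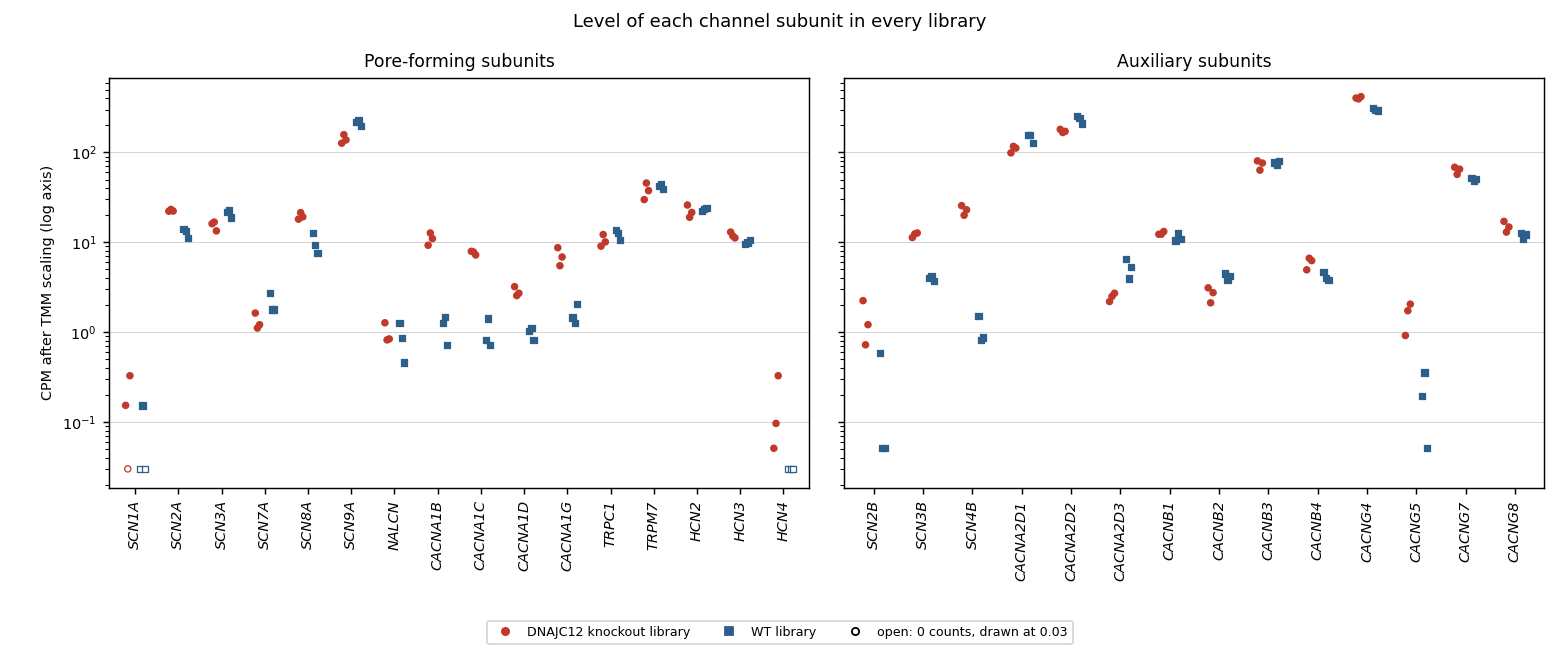
Level of each of the 30 channel subunits with counts, in CPM after TMM scaling on a log axis, for 3 knockout libraries (circles) and 3 WT libraries (squares); open symbols mark 0 counts. SCN9A and the CACNA2D genes lie lower in the knockout, while the calcium channel pores CACNA1B, CACNA1C, CACNA1D and CACNA1G and the sodium channel β subunits lie higher.

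The promoters of 3 pore genes are shown because these genes lead the changes described next: CACNA1B, the largest rise among tested pores, SCN8A, a sodium channel pore that rose, and SCN9A, the sodium channel pore with the most RNA per length, which fell. Each is the 300-base window from 250 bases before to 50 bases after the RefSeq start on GRCh38.p14, written 5′ to 3′ on the strand of the gene. Capitals mark matches of GGGCGG (a GC box) and CACGTG (an E box) that do not overlap each other. In CACNA1B and SCN8A, further GGGCGG copies that overlap a marked copy are left partly in small letters. TATAAA was also searched, as was TTCAGCACC, the left part of the site bound by the neuronal gene repressor REST. Both strands were searched. CACNA1B lies on the plus strand at chr9:137877532-137877831, SCN8A on the plus strand at chr12:51590983-51591282, and SCN9A on the minus strand at chr2:166375895-166376194.
CACNA1B: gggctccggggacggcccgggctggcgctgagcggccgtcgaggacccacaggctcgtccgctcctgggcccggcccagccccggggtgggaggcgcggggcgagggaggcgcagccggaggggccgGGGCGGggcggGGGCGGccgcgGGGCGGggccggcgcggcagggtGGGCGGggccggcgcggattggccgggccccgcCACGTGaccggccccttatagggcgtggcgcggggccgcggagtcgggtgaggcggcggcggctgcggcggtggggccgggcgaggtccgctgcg
SCN8A: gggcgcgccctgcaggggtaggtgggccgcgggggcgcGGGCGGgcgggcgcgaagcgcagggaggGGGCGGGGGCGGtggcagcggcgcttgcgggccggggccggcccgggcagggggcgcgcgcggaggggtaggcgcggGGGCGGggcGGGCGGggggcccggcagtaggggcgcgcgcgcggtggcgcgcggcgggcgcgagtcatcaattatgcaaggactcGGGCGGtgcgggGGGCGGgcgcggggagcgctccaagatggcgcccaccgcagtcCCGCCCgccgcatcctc
SCN9A: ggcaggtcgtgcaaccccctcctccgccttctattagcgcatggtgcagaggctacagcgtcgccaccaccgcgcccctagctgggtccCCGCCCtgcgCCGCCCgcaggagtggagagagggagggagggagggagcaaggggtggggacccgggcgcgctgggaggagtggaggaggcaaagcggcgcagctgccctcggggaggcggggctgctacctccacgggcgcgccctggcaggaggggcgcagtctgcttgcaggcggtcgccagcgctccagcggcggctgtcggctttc
The start in each window lay 7, 3 and 49 bases from the GENCODE start of the transcript with the most estimated reads for CACNA1B, SCN8A and SCN9A.

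All 3 windows were rich in G and C, at 85.3% for CACNA1B, 84.0% for SCN8A and 73.3% for SCN9A, where the median of all 35116 RefSeq promoter windows was 58.7%. They held 49, 52 and 28 CpG dinucleotides in that order, against a median of 14. GC boxes, counted without copies that overlap a counted one, numbered 4 in CACNA1B, 8 in SCN8A and 2 in SCN9A. CACNA1B held 1 E box. Over the listed subunits, 27 had 1 or more windows in the RefSeq table, 41 in all. A GC box stood in 24 of these (58.5%), against 45.0% of all windows, and an E box in 3 (CACNA1B, CACNA1I and TRPM7), against 7.26%. TATAAA occurred in 1 window, of SCN2A, against 11.5% of all windows. TTCAGCACC was in 0 of the 41, against 0.376% of all windows. These are matches of letters in a short window and say nothing on binding.

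Among the sodium channel pores, SCN2A and SCN8A rose, while SCN9A and SCN3A fell. SCN9A encodes Nav1.7, the sodium channel of sympathetic and pain-sensing neurons. It was at 127, 158 and 138 CPM in the knockout libraries against 219, 228 and 198 CPM in the WT libraries. Every knockout value lay below every WT value, and the log2 fold change was -0.61 ± 0.09 (adjusted p = 0.000483). In bulk RNA, fewer cells with a transcript and less of it per cell cannot be told apart, here and below.

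SCN8A encodes Nav1.6, the main channel of the mature axon initial segment and nodes of Ranvier. Its level was 18.1, 21.4 and 19.2 CPM in the knockout, against 12.7, 9.34 and 7.57 CPM in WT. The groups did not overlap, with WT 1 nearest to the knockout, and the log2 fold change was 0.99 ± 0.17 (adjusted p = 0.00151). SCN2A, which encodes Nav1.2 of immature and unmyelinated axons, was at 22.2, 23.2 and 22.3 CPM in the knockout against 14.2, 13.3 and 11.1 CPM in WT. Again the groups did not overlap, and the log2 fold change was 0.81 ± 0.11 (adjusted p = 0.000391). With gene counts built from the transcript files and corrected for transcript length, the SCN2A change was 0.36 and did not pass the test (adjusted p = 0.0937).

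SCN3A, for Nav1.3 of the embryonic brain, had 16.1, 16.8 and 13.4 CPM in the knockout and 21.7, 23.1 and 18.9 CPM in WT. The groups lay apart by a small margin, with a log2 fold change of -0.46 ± 0.12 (adjusted p = 0.0191). That call was lost without WT 1 (adjusted p = 0.0625), without WT 2 (0.0874), without knockout 3 (0.101) and on length-corrected counts (0.0699). GENCODE release 29 transcripts held only 43.4% to 78.1% of the SCN3A table counts, depending on the library. On gene counts summed over these transcripts the change was -0.89 (adjusted p = 0.00846). SCN7A encodes the atypical channel Nax, which senses extracellular sodium. It had 1.63, 1.11 and 1.21 CPM in the knockout and 2.71, 1.78 and 1.79 CPM in WT, and its log2 fold change of -0.67 (95% interval -1.39 to 0.05) did not pass (adjusted p = 0.165). SCN1A, for Nav1.1, was too sparse to test, with 3, 0 and 7 counts in the knockout and 0, 3 and 0 counts in WT. SCN4A, for the channel of skeletal muscle, had no row in the gene table, whose lowest row total was 10 counts, and its transcripts held 1 read in all.

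Set side by side per length, SCN9A held most of the sodium channel pore RNA in both genotypes. Its share was 68.2%, 71.5% and 70.8% in the knockout libraries against 80.5%, 82.0% and 82.8% in the WT libraries. SCN2A made up 12.4% ± 0.812 (SD, n = 3) of the pore RNA in the knockout and 5.38% ± 0.335 in WT. SCN8A made up 8.24% ± 0.0833 in the knockout and 3.16% ± 0.694 in WT. The shares of these 3 genes did not overlap between genotypes. SCN3A kept overlapping shares, at 8.27% ± 0.957 in the knockout and 8.66% ± 0.25 in WT. The 6 pores together summed to 19.1, 22.7 and 19.9 CPM per kb in the knockout against 27.8, 28.4 and 24.5 CPM per kb in WT, or 0.763 times the WT mean.

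The sodium channel β subunits are single-pass membrane proteins that change channel gating and act as cell adhesion molecules. All 3 listed β genes were higher in the knockout. SCN4B, whose product gives rise to resurgent current in neurons, had 25.6, 20.0 and 23.0 CPM in the knockout against 1.50, 0.812 and 0.869 CPM in WT. The lowest knockout value lay far above the highest WT value. Its log2 fold change of 4.41 ± 0.21 (adjusted p = 1.5e-07), a 21.3-fold difference, was the largest among the tested subunits.

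SCN3B, which encodes β3, had 11.3, 12.4 and 12.7 CPM in the knockout and 4.02, 4.21 and 3.68 CPM in WT. The groups did not overlap, and the log2 fold change was 1.61 ± 0.14 (adjusted p = 1.23e-05). GENCODE release 29 transcripts held from 0% to 100% of its table counts, depending on the library. On transcript sums its change of 2.46 did not pass (adjusted p = 0.107), nor did that of 2.39 on length-corrected counts (0.132). SCN2B, which encodes the disulfide-linked β2, rested on few reads, with 44, 15 and 26 counts in the knockout against 12, 1 and 1 counts in WT. Its levels were 2.24, 0.722 and 1.21 CPM in the knockout and 0.581, 0.0508 and 0.0511 CPM in WT. The groups did not overlap, with knockout 2 just above WT 1, and the log2 fold change was 2.55 ± 0.76 (adjusted p = 0.0301). It was 4.61 without WT 1, and the call was lost without WT 2 (adjusted p = 0.118), WT 3 (0.124), knockout 1 (0.0853) or knockout 3 (0.0647) and on transcript sums (0.0909) and length-corrected counts (0.122).

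Per length, the 3 β genes summed to 8.02, 6.66 and 7.47 CPM per kb in the knockout, against 1.11, 0.886 and 0.811 CPM per kb in WT, a 7.88-fold difference of the means. SCN4B supplied 68.9% ± 2.09 of this sum in the knockout and 24.8% ± 4.82 in WT (SD, n = 3 each), and SCN3B supplied 27.4% ± 3.86 in the knockout and 70.9% ± 10.1 in WT. The leading β transcript was thus SCN4B in all 3 knockout libraries and SCN3B in all 3 WT libraries. Sodium channel pores stood to β subunits, per length, as 2.38, 3.41 and 2.66 to 1 in the knockout libraries and as 25.0, 32.1 and 30.2 to 1 in the WT libraries.

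The voltage-gated calcium channel pores with enough counts to test were CACNA1B, CACNA1C, CACNA1D and CACNA1G, and all 4 rose. CACNA1B encodes the pore of the N-type channel that triggers transmitter release from sympathetic nerve endings. It was at 9.27, 12.7 and 11.0 CPM in the knockout against 1.26, 1.47 and 0.716 CPM in WT. Knockout values were all above WT values, and the log2 fold change was 3.25 ± 0.25 (adjusted p = 4.67e-06), or 9.50-fold. CACNA1C encodes Cav1.2, an L-type pore that couples depolarisation to gene expression. It was at 7.94, 7.80 and 7.23 CPM in the knockout and 0.823, 1.42 and 0.716 CPM in WT. With no overlap between the groups, its log2 fold change was 2.95 ± 0.26 (adjusted p = 1.29e-05), or 7.73-fold. GENCODE release 29 transcripts held 17.9% to 100% of the CACNA1C table counts, depending on the library. On transcript sums the change was 3.39 (adjusted p = 0.00096).

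CACNA1G encodes the T-type pore Cav3.1, which opens at low voltage. Its level was 8.71, 5.49 and 6.86 CPM in the knockout and 1.45, 1.27 and 2.05 CPM in WT. The groups did not overlap, and the log2 fold change was 2.14 ± 0.26 (adjusted p = 0.000134). CACNA1D encodes Cav1.3, an L-type pore that opens at more negative voltages than Cav1.2. Its level was 3.21, 2.55 and 2.71 CPM in the knockout and 1.02, 1.12 and 0.818 CPM in WT. The groups lay apart, with a log2 fold change of 1.51 ± 0.29 (adjusted p = 0.00297), and on length-corrected counts the change of 1.40 did not pass (adjusted p = 0.0639).

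The other listed calcium channel pores had no row in the table. For CACNA1A (P/Q type), CACNA1F (the retinal L type) and CACNA1H (T type) the transcript files held 0 reads in all 6 libraries, over 58, 6 and 12 annotated transcripts. CACNA1E (R type) had 2.5 estimated reads in the knockout libraries together and 0 in WT, and CACNA1I (T type) had 0 in the knockout and 1 in WT. In a library with 0 reads, 3 counts, or 0.137 to 0.155 CPM, is the most that a count of 0 allows. This limit covers counting error only.

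Together the 4 detected calcium channel pores summed to 2.87, 2.77 and 2.73 CPM per kb in the knockout against 0.465, 0.519 and 0.450 CPM per kb in WT, a 5.83-fold difference of the means. CACNA1B made up 33.0%, 46.9% and 41.1% of this sum in the knockout and 27.7%, 28.9% and 16.3% in WT. CACNA1D took a smaller share in the knockout, at 10.7% ± 1.06, than in WT, at 21.8% ± 2.18 (SD, n = 3 each), although its own level rose. The shares of CACNA1C and CACNA1G overlapped between genotypes. All these shares rest on the longest coding transcript, and by TPM the pores stood in another order. In WT, CACNA1D had 0.630 TPM, against 0.189 TPM for CACNA1B and 0.296 TPM for CACNA1G, whose range overlapped with that of CACNA1D. In the knockout CACNA1D, CACNA1B and CACNA1G were at 1.58, 1.56 and 1.47 TPM and overlapped. The ratios to calcium channel pore RNA given below use the same CPM per kb.

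**Figure D2:**
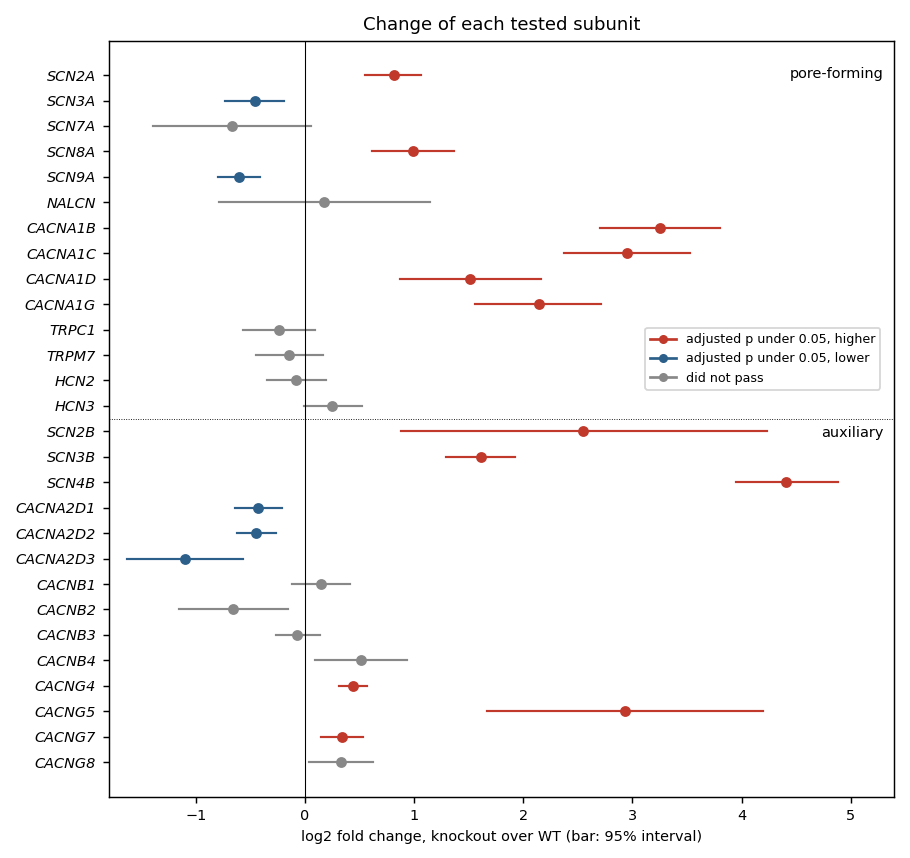
Log2 fold change of each of the 28 tested subunits, knockout over WT, with 95% intervals; pore-forming subunits are above the dotted line and auxiliary subunits below it. SCN4B, at 4.41, and CACNA1B, at 3.25, lead the auxiliary and the pore-forming subunits, and the 3 CACNA2D genes lie left of 0.

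The α2δ subunits are extracellular proteins anchored to the membrane that bring calcium channels to the surface, and 2 of them are the targets of gabapentin drugs. All 3 detected α2δ genes fell in the knockout. CACNA2D2 was at 181, 167 and 172 CPM in the knockout against 257, 241 and 210 CPM in WT. The groups did not overlap, and the log2 fold change was -0.45 ± 0.08 (adjusted p = 0.00189). CACNA2D1 was at 99.0, 117 and 112 CPM in the knockout and 158, 156 and 127 CPM in WT. Its groups lay apart as well, with WT 3 nearest to the knockout, and the log2 fold change was -0.43 ± 0.10 (adjusted p = 0.00777). CACNA2D3 was at 2.19, 2.50 and 2.71 CPM in the knockout and 6.58, 3.96 and 5.32 CPM in WT. No values overlapped, and the log2 fold change was -1.10 ± 0.24 (adjusted p = 0.00642). CACNA2D4, known from the retina, had no row in the table, with 0, 1 and 1 estimated reads in the knockout and 3, 2 and 2 in WT.

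The α2δ genes summed to 45.2, 45.1 and 45.3 CPM per kb in the knockout and 67.2, 63.4 and 54.7 CPM per kb in WT. CACNA2D2 supplied 67.4% ± 2.75 of the sum in the knockout and 67.1% ± 0.396 in WT (SD, n = 3 each), so that the makeup of this set overlapped between genotypes apart from CACNA2D3, which gave 1.44% in the knockout and 2.27% in WT. The pores rose and the α2δ genes fell, so that α2δ RNA stood to pore RNA, per length, as 15.7, 16.3 and 16.6 to 1 in the knockout libraries and as 145, 122 and 122 to 1 in the WT libraries.

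The calcium channel β subunits are cytoplasmic proteins that bind the pore and carry it to the membrane. None of the 4 β genes passed edgeR's test; 2 of them, CACNB2 and CACNB4, had an unadjusted p under 0.05, and DESeq2 called 0 of the 4. CACNB3 was at 80.6, 63.6 and 76.3 CPM in the knockout and 77.4, 73.6 and 79.8 CPM in WT. These values overlapped, and the 95% interval of the log2 difference ran from -0.27 to 0.14 (adjusted p = 0.665). CACNB1 had 12.3, 12.3 and 13.2 CPM in the knockout and 10.5, 12.8 and 10.9 CPM in WT, with an interval of -0.12 to 0.41 (adjusted p = 0.433).

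CACNB2 and CACNB4 had values that did not overlap, in opposite directions. CACNB2 was at 2.12 to 3.11 CPM in the knockout and 3.86 to 4.50 CPM in WT, with a log2 difference of -0.66 (95% interval -1.16 to -0.16, adjusted p = 0.056). It passed under limma-voom (adjusted p = 0.041), with library size alone (0.0421) and without knockout 1 (0.0408). CACNB4 was at 4.94 to 6.65 CPM in the knockout and 3.78 to 4.70 CPM in WT, with a log2 difference of 0.51 (0.09 to 0.93, adjusted p = 0.0733), and passed without knockout 1 (0.0333). The summed β level was 31.9, 26.2 and 30.8 CPM per kb in the knockout and 30.5, 29.7 and 31.3 CPM per kb in WT, and CACNB3 supplied 84.5% ± 1.61 of it in the knockout and 86.0% ± 1.23 in WT (SD, n = 3 each). The ratio of β to calcium channel pore RNA was 11.1, 9.46 and 11.3 to 1 in the knockout and 65.6, 57.2 and 69.6 to 1 in WT.

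**Figure D3:**
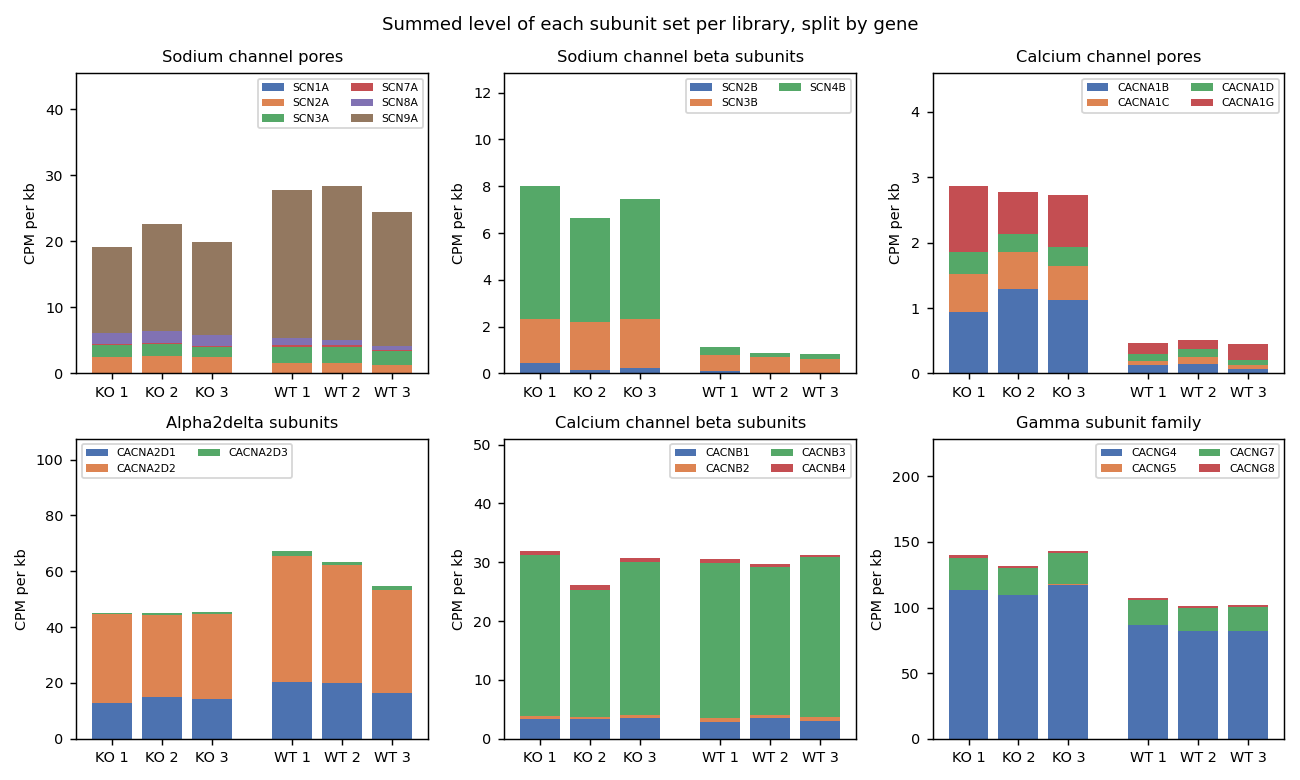
Summed level of 6 subunit sets in each library, in CPM per kb, stacked by gene, with the knockout libraries left of the WT libraries. The calcium channel pores and the sodium channel β subunits are several times as high in the knockout, while the sodium channel pores and the α2δ subunits are lower and the calcium channel β subunits overlap.

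The γ subunit family holds proteins that also serve as partners of AMPA-type glutamate receptors, among them CACNG4, CACNG5, CACNG7 and CACNG8. CACNG4 was at 404, 395 and 419 CPM in the knockout and 311, 295 and 294 CPM in WT. The groups lay apart, and the log2 fold change was 0.44 ± 0.06 (adjusted p = 0.000238). CACNG7 was at 68.5, 57.1 and 65.2 CPM in the knockout and 51.9, 47.9 and 50.9 CPM in WT. Its groups did not overlap, and the log2 fold change was 0.34 ± 0.09 (adjusted p = 0.0151). That call was lost without WT 2 (adjusted p = 0.0819), without knockout 3 (0.0761) and on length-corrected counts (0.082).

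CACNG5 was sparse, with 18, 36 and 44 counts in the knockout and 4, 7 and 1 counts in WT. Its levels were 0.917, 1.73 and 2.05 CPM in the knockout and 0.194, 0.355 and 0.0511 CPM in WT. The groups did not overlap, and the log2 fold change was 2.93 ± 0.57 (adjusted p = 0.00325), or 3.59 without WT 2. CACNG8 had 17.1, 13.0 and 14.8 CPM in the knockout and 12.6, 10.9 and 12.2 CPM in WT. Its values lay apart, and the log2 difference of 0.33 (95% interval 0.04 to 0.62) did not pass (adjusted p = 0.0958), but did without knockout 2 (0.0317). The summed γ family was at 140, 132 and 143 CPM per kb in the knockout and 107, 101 and 102 CPM per kb in WT, with CACNG4 at 82.0% of the sum in the knockout and 81.0% in WT.

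The remaining pores are a sodium leak channel, the TRP channels and the hyperpolarisation-activated HCN channels, and none of the 5 tested passed edgeR's test; 0 of them had an unadjusted p under 0.05, and DESeq2 and limma-voom called 0. NALCN, the sodium leak channel that sets resting excitability, was near the detection minimum, at 0.819 to 1.27 CPM in the knockout and 0.460 to 1.26 CPM in WT. Its 95% interval of -0.79 to 1.14 on the log2 scale is wide. TRPM7, a magnesium and calcium channel fused to a kinase, had 29.9, 45.7 and 37.6 CPM in the knockout and 42.2, 44.1 and 39.0 CPM in WT, with an interval of -0.45 to 0.16. TRPC1, a subunit of receptor-operated cation channels, had 9.06, 12.2 and 10.1 CPM in the knockout and 13.8, 12.6 and 10.6 CPM in WT, with an interval of -0.57 to 0.09. The groups overlapped for all 3 of these genes.

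HCN2 had 26.0, 19.0 and 21.5 CPM in the knockout and 22.4, 23.5 and 24.3 CPM in WT, with a 95% interval of -0.35 to 0.19 for the log2 difference. HCN3 had 13.0, 11.8 and 11.2 CPM in the knockout and 9.59, 9.95 and 10.6 CPM in WT, values that did not overlap, with an interval of -0.01 to 0.52 (adjusted p = 0.153). HCN4, known from the sinus node of the heart, had 1, 2 and 7 counts in the knockout and 0 in each WT library, too few to test. Summed per length, the HCN genes were at 9.63 ± 1.22 CPM per kb in the knockout and 9.46 ± 0.41 CPM per kb in WT (SD, n = 3 each).

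The order of the subunits by TPM could be given for the 22 whose table counts were at least 80% covered by GENCODE release 29 transcripts in every library. CACNG4 stood first in both genotypes, with 150 ± 4.04 TPM in the knockout and 117 ± 5.03 TPM in WT (SD, n = 3 each). In the knockout it was followed by CACNB3 (47.7 TPM) and CACNA2D2 (44.6 TPM), whose ranges overlapped, then by CACNG7 (32.5 TPM), and by SCN9A (24.3 TPM) and CACNA2D1 (19.7 TPM), which again overlapped. In WT the order after CACNG4 was CACNA2D2 (62.1 TPM), CACNB3 (52.6 TPM) and SCN9A (37.1 TPM), each apart from the next, and then CACNA2D1 (28.6 TPM) and CACNG7 (27.8 TPM), which overlapped. HCN2 was seventh in both, at 11.3 TPM in the knockout and 12.7 TPM in WT.

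SCN4B moved furthest in this order. It ranked 9 in the knockout with 7.62 ± 1.35 TPM, overlapping with TRPM7 above and CACNB1 below it, and 18 in WT with 0.322 ± 0.111 TPM, overlapping with SCN7A above and CACNA1G below it (SD, n = 3 each). CACNA2D3 ranked 19 in the knockout with 1.33 TPM and 11 in WT with 3.64 TPM. The pores CACNA1D, CACNA1B and CACNA1G lay together in the knockout, at 1.58, 1.56 and 1.47 TPM, and overlapped with each other, whereas in WT they had 0.630, 0.189 and 0.296 TPM. Calcium channel pores stayed in the lower part of the order in both genotypes, while CACNA2D2 and CACNB3 stood in the upper part.

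Besides CACNA2D3, estimated transcript reads are described for SCN9A, where their shares were similar between libraries, and for SCN2A, where they varied widely in WT. For SCN9A, SCN9A-203 carried 77.2%, 65.3% and 74.3% of the gene's reads in the knockout libraries and 80.5%, 68.1% and 76.1% in the WT libraries, so the ranges overlapped. For SCN2A, protein-coding transcripts carried 64.4%, 74.2% and 74.9% of the reads in the knockout and 30.7%, 63.3% and 4.78% in WT. The coding transcript SCN2A-207 held 28.5%, 27.9% and 16.0% in the knockout and 4.02%, 1.82% and 4.78% in WT. SCN2A-212, annotated as a target of nonsense-mediated decay, held 12.3%, 8.89% and 11.6% in the knockout and 35.2%, 18.4% and 56.0% in WT. None of these 3 SCN2A measures overlapped between genotypes, but the WT libraries differed widely among themselves. By TPM, SCN2A was at 4.25 ± 0.295 in the knockout and 3.47 ± 0.337 in WT (SD, n = 3 each). For CACNA1B, CACNA1C and CACNA1G the leading transcript changed between libraries of 1 genotype, so their transcripts were not compared.

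Several subunit genes are neighbours. SCN3A, SCN2A, SCN1A, SCN9A and SCN7A lie within 1410 kb of chromosome 2, from 165087526 to 166494249 on GRCh38.p14, and in this cluster SCN2A rose while SCN3A and SCN9A fell. Of 3 other tested genes there or within 200 kb, CSRNP3 was higher (log2 0.52), SLC38A11 was lower (log2 -3.99) and TTC21B did not pass (log2 0.22). SCN4B and SCN2B lie within 43.3 kb of chromosome 11, and both rose. Next to them IL10RA was higher (log2 3.46) and UBE4A, at a log2 difference of 0.06, did not pass. CACNG5 and CACNG4, within 198 kb of chromosome 17, rose together with their 2 other tested neighbours, PRKCA (log2 1.73) and HELZ (log2 0.39). Around CACNG7 and CACNG8 on chromosome 19, 0 of 10 other tested genes were higher and 2 were lower, among them TMC4 (log2 -0.84).

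Reads of overlapping genes on opposite strands are uncertain, because no source used here gives the strand setting of the counting. In the GENCODE annotation this touches SCN2A and SCN3A, CACNA1C with DCP1B, CACNA1D with DCP1A and CHDH, HCN3 with CLK2, and CACNB4 with a non-coding gene. Salmon also divides reads between transcripts of like sequence, so reads shared by paralogous pores may be split between them.

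Partners of the sodium channels and of NALCN were read from a list of 22 genes, of which 20 were tested, 9 were higher, 4 were lower and 7 did not pass. This is 65.0% called, against 26.0% over all genes tested (14.5% higher and 11.5% lower), and the median log2 fold change was 0.34. CNTN2 and NALF2, counted among the 9, had 6 and 4 counts in the WT libraries together and entered the test through the knockout, so the share and the median are descriptions. NFASC, the cell adhesion protein neurofascin of the axon initial segment, was at 17.4 ± 1.61 CPM in the knockout and 1.37 ± 0.085 CPM in WT (SD, n = 3 each), a log2 fold change of 3.66 ± 0.16 (adjusted p = 7.87e-08). UNC79 and UNC80, the large cytoplasmic subunits of the NALCN complex, rose by 3.24 ± 0.15 and 2.80 ± 0.18 on the log2 scale (adjusted p = 1.05e-07 and 1.31e-06). NRCAM, another adhesion protein of the initial segment, fell by 1.54 ± 0.12 on the log2 scale (adjusted p = 6.44e-06). Named after their values were seen, the NALCN-associated NALF1 had a log2 fold change of -0.97, and NALF2 had 2.65, 3.37 and 2.75 CPM in the knockout and 0, 0.0508 and 0.153 CPM in WT. NALCN itself, the pore of this complex, did not pass, as given above.

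Modulators and release-site partners of the calcium channels were read from a list of 24 genes, of which 23 were tested, 10 were higher, 3 were lower and 10 did not pass. This is 56.5% called, against 26.0% over all genes tested, and the median log2 fold change was 0.22. RRAD, counted among the 10 higher, entered the test through the knockout. SNAP25, a SNARE protein of vesicle fusion, was at 70.6 ± 8.83 CPM in the knockout and 18.2 ± 0.586 CPM in WT (SD, n = 3 each), a log2 fold change of 1.95 ± 0.10 (adjusted p = 3.4e-07). RIMS1, which tethers calcium channels at the active zone, had a log2 fold change of 1.94 ± 0.27 (adjusted p = 0.000359), and the SNARE protein gene STX1A one of 0.95 ± 0.13 (adjusted p = 0.000364). AKAP5, an anchor of kinases at L-type channels, fell by 1.51 ± 0.25 on the log2 scale (adjusted p = 0.00122).

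Channels of the same superfamily outside the 37 were read from a list of 34 genes, of which 13 were tested, 3 were higher, 2 were lower and 8 did not pass. This is 38.5% called, against 26.0% over all genes tested, and the median log2 fold change was -0.08. SCN11A, a pore of pain-sensing neurons, rose by 2.95 ± 0.33 on the log2 scale (adjusted p = 6.84e-05). CACNG2, the γ family member known as stargazin, was at 2.63 ± 0.729 CPM in the knockout (SD, n = 3) and had 0 counts in WT, so that it entered the test through the knockout. TPCN1, a channel of endosomes and lysosomes, fell by 0.59 ± 0.11 on the log2 scale (adjusted p = 0.00276).

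**Figure D4:**
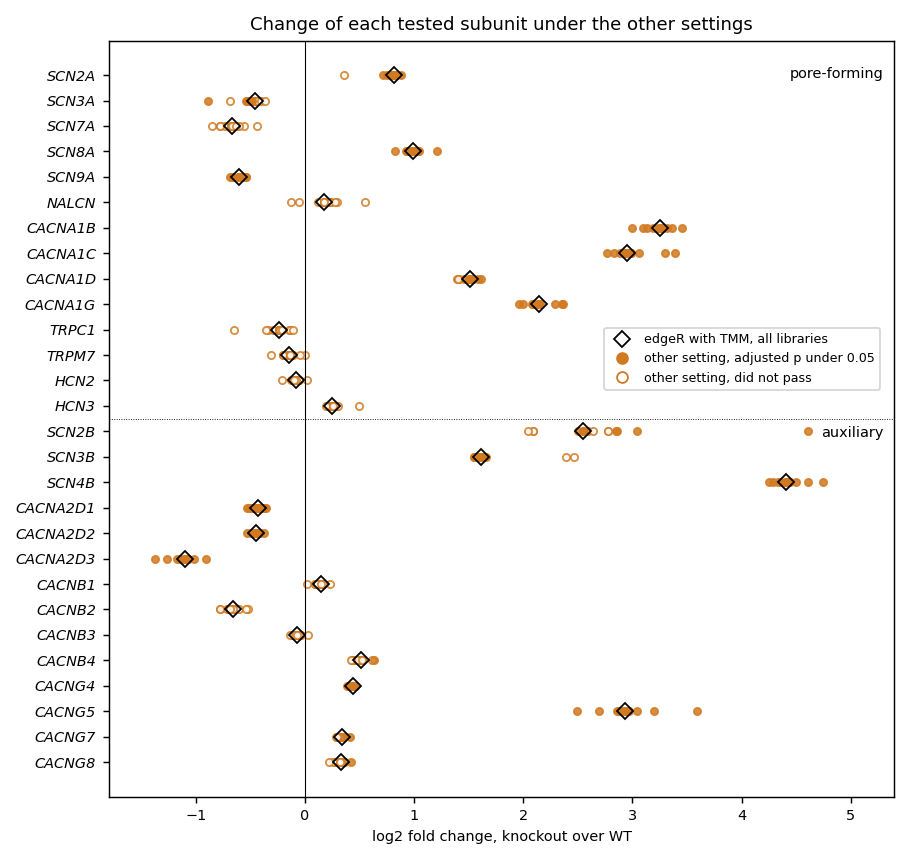
Log2 fold change of each of the 28 tested subunits, knockout over WT, as fitted with all libraries (diamonds) and under 15 other settings (circles, filled where the adjusted p was under 0.05). Of the 17 called subunits, 11 have filled circles throughout, while SCN2B spreads from 2.04 to 4.61.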

How the data were processed

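RNA was measured in 3 DNAJC12 knockout and 3 WT libraries of SH-SY5Y cells; per the labels' protocols, ribosomal RNA was removed and a stranded kit used. Salmon 1.10.0, DESeq2 1.42.1, cutadapt 3.5, FastQC and the build GRCh38.p14 are listed in the submitters' processing notes without their roles; annotation release and strand setting are not given in the sources used here. The gene table deposited by the authors holds unnormalized whole-number counts; per the file headers, the transcript files hold an estimated count and a TPM value for each transcript, as the authors' quantifier gave them. After removal of 403 repeated rows, 20668 genes remained.

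Genes kept by filterByExpr (16403; 0.501 CPM in 3 libraries) were fitted with edgeR 4.0.16 in R 4.3.3 (TMM, quasi-likelihood test on genotype, two-sided). The procedure was tested on simulated data. All 6 libraries entered 1 fit. Transcripts were assigned through GENCODE release 29, which held 94.2% to 94.6% of reads. Promoters came from RefSeq.

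Members, lists, tests and settings were chosen with earlier results of these data known. Every listed subunit is accounted for, with values in all libraries for those called or at 10 CPM or more in a genotype; of other lists, up to 4 genes with the smallest adjusted p are named. Some genes that these rules name are not reported here; counts over lists include them. Replicates differed beyond counting noise (chi-square per gene 4.37 to 22.7). The alternatives were library size alone, DESeq2 size factors, other filters, DESeq2 1.42.0, limma-voom (limma 3.58.1), a block on replicate number, each library left out, and gene counts summed over transcripts, with or without correction for transcript length.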

Additional observations from a re-analysis of the deposited data

How the results depend on the processing

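Over 15 other settings, 393 of 415 values of single subunits stayed on their side of the threshold, 17 lost the call and 5 gained it. No called subunit changed direction; CACNB3, HCN2 and NALCN, which were not called, crossed 0 in some settings. Of the 17 called subunits, 11 were called in every setting that tested them; the others were SCN2A, SCN3A, SCN2B, SCN3B, CACNA1D and CACNG7. Length-corrected counts from the transcript files gave 7 higher and 4 lower subunits in place of 12 and 5, and 2834 called genes in place of 4270; the cause was not tested. Leaving out 1 library gave 10 to 13 higher subunits, 4 to 6 lower, and 2966 to 4772 called genes. The replicate numbers do not pair the samples: deviations of same-numbered libraries correlated at 0.0591, -0.0297 and -0.0652. The fit with the replicate block gave 12 higher and 5 lower subunits and 4565 called genes. A mean of at least 1 CPM left 25 subunits, 10 of them higher. Depth limits SCN1A, HCN4, SCN2B, CACNG5 and NALCN, which rest on few counts.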

Other observations

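Genes that release, store and extrude calcium were read from a list of 21, all tested, of which 6 were higher, 8 were lower and 7 did not pass edgeR's test. This is 66.7% called, against 26.0% over all genes tested; RYR2 and ATP2B2, among the 6, entered the test through the knockout. The list's median log2 fold change was -0.18. SLC8A1 and SLC8A3, which encode sodium-calcium exchangers of the plasma membrane, changed in opposite directions. SLC8A1 was at 35.4 ± 1.4 CPM in the knockout and 11.5 ± 1.2 CPM in WT, and SLC8A3 at 8.93 ± 0.459 CPM in the knockout and 32.5 ± 4.3 CPM in WT (SD, n = 3 each; log2 1.62 and -1.86). RYR1, a calcium release channel, fell by 1.89 ± 0.16 on the log2 scale, and ATP2B1, a plasma membrane calcium pump, rose by 1.42 ± 0.14. Named after their values were seen, the other plasma membrane pump genes ATP2B3 and ATP2B4 were higher by 1.72 and 0.58 on the log2 scale, ATP2B2 was at 3.58 ± 0.441 CPM in the knockout and 0.267 ± 0.155 CPM in WT (SD, n = 3 each; 221 and 16 counts), and the store-operated channel genes ORAI1, ORAI2 and ORAI3 had log2 fold changes of -0.52, -0.36 and -0.53.

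Of 12 genes of the REST repressor complex, which holds neuronal channel genes silent in other cell types, 2 were higher and 1 was lower, or 25.0% called, a share near the 26.0% over all genes tested. REST itself was at 40.6 ± 6.0 CPM in the knockout and 21.5 ± 3.25 CPM in WT (SD, n = 3 each), a log2 fold change of 0.92 ± 0.14. RCOR2, a co-repressor, fell by 0.51 ± 0.08 on the log2 scale, and SIN3B rose by 0.24 ± 0.07. Among the neuroblast markers, CHGA and ELAVL4 were higher, with log2 fold changes of 1.71 and 2.10, and DBH, GATA3, GATA2, ISL1 and HAND2 were lower, with -0.69, -0.34, -0.33, -0.27 and -0.29.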
